A study of Bos taurus with 111 samples.

Results

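Muscle of Charolais (CH) steers, a late-maturing beef breed, was compared between 2 periods in which the animals ate the same concentrate, about a year apart. The comparison took the CH-H2 libraries against the CH-H1 libraries and used 32 of the 111 libraries of the series, 18 from H1 and 14 from H2. H1 was the first high-concentrate phase, in growing steers that were 283 days old and weighed 395 kg on average when it began. H2 was the second high-concentrate phase, which began 371 days later in finishing steers of 675 kg. In both phases the ration was offered to appetite, consisted mostly of rolled barley (860 g/kg) with soya, molasses and minerals, and came with a limited allowance of grass silage. A phase of cut grass (ZG) lay between them. Within each phase steers had been picked as the extremes of residual feed intake (RFI), the feed eaten beyond that expected for size and growth, so that the CH-H1 libraries comprised 8 low (L-RFI) and 10 high (H-RFI) steers and the CH-H2 libraries 7 of each. Of the 26 steers, 6 were sampled in both phases, 12 in H1 alone and 8 in H2 alone. Of those 6, 1 was L-RFI in both phases, 2 were H-RFI in both, 2 went from H-RFI to L-RFI and 1 from L-RFI to H-RFI. Biopsies of the M. longissimus thoracis et lumborum, the long muscle of the back, were taken at the end of each feeding period. Age, body weight, biopsy date and feeding history all changed with the phase and cannot be told apart here. Whether the libraries of the phases were sequenced in the same run is not given in the sources used here.

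Between growing and finishing, the muscle of beef cattle gains mass mainly by enlarging fibres that are already present, while fat cells multiply and fill between the fibre bundles as marbling. Muscle also carries a set of immediate early genes, such as FOS, JUN and EGR1, which encode transcription factors that are switched on within minutes of contraction, injury, feeding or hormone signals and fade quickly. Their level in a biopsy is a snapshot of recent signals, whereas genes of fibres and fat cells change with the make-up of the tissue.

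The gene counts of the libraries ranged from 8301679 to 52552057 in CH-H1 and from 2201765 to 32101658 in CH-H2, and 2 further CH-H2 libraries were dropped for holding under 1000000. Genes with at least 1 count numbered 13604 to 16040 in CH-H1 and 10008 to 14837 in CH-H2, a lower number in CH-H2 (permutation test with 100000 resamples, p = 0.00174, adjusted over 5 library measures p = 0.0087). This number also depends on depth, and the median gene count was 15574483 in CH-H1 and 12756385 in CH-H2. The gene counts had p = 0.0339 in the same test (adjusted p = 0.0848). That test took all libraries as independent, though 6 steers gave 1 to each phase. The TMM factor, which scales each library to the others, was 0.771 to 1.499 in CH-H1 and 0.531 to 1.35 in CH-H2 and did not pass the same test (adjusted p = 0.110). The library of steer 856 in CH-H2 stood apart from the rest, with the fewest counts, the fewest genes and the lowest factor. Mapping set other libraries apart. Reads that mapped to several places made up 22.2% in CH-H2 steer 1484, 17.1% in CH-H2 steer 1840 and 11.4% in CH-H1 steer 555. In the other libraries compared they made up 4.99% to 8.78%. Unmapped reads were also most frequent in these libraries, at 8.21%, 5.68% and 4.86%. The first principal component of the libraries held 51.4% of the variance and ran with the TMM factor (Spearman's rho -0.836 over 32 libraries that share this scaling). None of the 14 skeletal muscle fibre markers could be paired with an identifier, so the tissue label was checked only through other fibre genes. MYH6, a slow-type myosin heavy chain, was present in all the libraries, at 99.3 to 588.9 CPM (counts per 1000000 gene counts) in CH-H1 and 118.9 to 566.9 CPM in CH-H2.

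**Figure D1:**
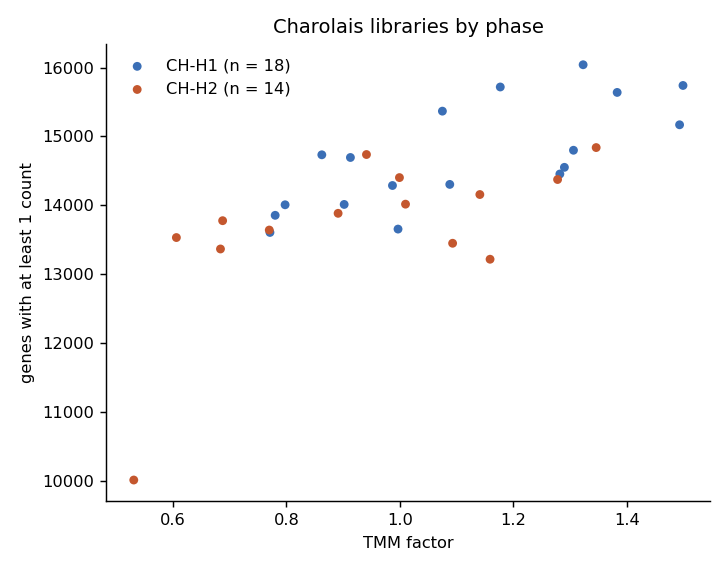
Number of genes with at least 1 count (vertical axis) against the TMM factor (horizontal axis) of the 18 CH-H1 libraries and the 14 CH-H2 libraries, 1 point per library. The CH-H2 library at a factor of 0.531 and 10008 genes lies away from the rest, and the phases otherwise overlap along both axes.

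Of 10317 genes tested, 156 (1.51%) differed between the phases at an adjusted p under 0.1 and a fold change above 1.5. More were lower than higher a year later, 116 genes (1.12%) against 40 (0.388%). The low count filter asked for 1 CPM in 50% of the libraries compared. The 18 CH-H1 libraries alone could admit a gene to the test, and the 14 CH-H2 libraries alone could not. Without a filter 75 genes were called higher and 175 lower. CH-H2 libraries also held fewer genes with at least 1 count, and the bearing of this on the called genes was not tested. The called genes that were higher in CH-H2 had a median log2 fold change of 0.81 and those that were lower a median of -0.89, while the median over all genes tested was -0.05, with 56.5% of them below 0 and 43.5% above. No called gene separated the phases completely, and the same held for every gene tested: each had at least 1 library of one phase inside the range of the other. A symbol was at hand for 119 of the tested genes and for 3 of the called ones, namely JUN and DDIT4, which fell, and TRARG1, which rose. These symbols came from genes that the study picked for RFI or for diet and breed effects in these same libraries. When the steer was a fixed block, so that only the 6 steers seen in both phases carried the comparison, edgeR's quasi-likelihood test called 0 genes, with 83 at an unadjusted p under 0.05. All of the 156 kept their direction there, but the libraries of these steers were among those that picked the 156 genes. The shared direction is therefore not a separate test of these genes. DESeq2 called 80 higher and 214 lower.

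The genes with the smallest p had identifiers without a symbol in the sources used here. ENSBTAG00000021487 stood at 1.30 CPM (lowest), 3.33 (median) and 10.1 (highest) in CH-H1 and at 3.75, 11.1 and 58.0 CPM in CH-H2, a log2 fold change of 1.92 ± 0.31 (SE, adjusted p = 0.0016). It was higher in CH-H2 in 6 of the 6 steers seen in both phases. ENSBTAG00000005718 went from 8.74, 14.8 and 42.0 CPM to 20.3, 36.3 and 57.6 CPM, a log2 fold change of 1.27 ± 0.20 (adjusted p = 0.0016). ENSBTAG00000017223 fell from 1.77, 3.19 and 6.74 CPM to 0, 1.23 and 2.11 CPM, a log2 fold change of -1.38 ± 0.23 (adjusted p = 0.0016), and was lower in 6 of 6 steers. ENSBTAG00000019960 fell from 0.495, 1.80 and 3.54 CPM to 0, 0.463 and 1.15 CPM (log2 fold change -1.52 ± 0.25, adjusted p = 0.0016). Within steers ENSBTAG00000005718 was higher in 5 of 6 and ENSBTAG00000019960 lower in 5 of 6. ENSBTAG00000019960 passed the low count filter in 16 of the 32 fits that left a library out and was called in those 16, and the other 3 were called in all 32. The filter asked for 1 CPM in 50% of the libraries. With a CH-H2 median of 0.463 CPM, ENSBTAG00000019960 passed it mainly through CH-H1, the phase in which it was higher. In these 4 genes the ZG median lay between those of CH-H1 and CH-H2.

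Of the 16 tested immediate early genes 1, JUN, fell a year later after adjustment over all genes, beside 1.12% of all genes called lower. All 16 had a log2 fold change below 0, beside 56.5% of all genes and 62.2% of the 119 tested genes with a symbol. The list median was -0.69. For 14 of them the unadjusted p was under 0.05, beside 7.77% of all genes lower at that level and 26.1% of the 119 tested genes that could be named, the group from which these members come. NFKBIA, close to 0, turned above it in 9 of the 32 fits that left out 1 library and under 5 of the other settings, and CCN1 turned above 0 with the steer as a fixed block (0.09).

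JUN encodes a subunit of the AP-1 transcription factor. Its level was 40.4 CPM (lowest), 85.5 (median) and 208 (highest) in CH-H1 and 19.7, 50.3 and 95.7 CPM in CH-H2. Of the 14 CH-H2 libraries 13 lay below the CH-H1 median, and 6 of the 18 CH-H1 libraries lay above the highest CH-H2 library, with the ranges overlapping in between. The log2 fold change was -0.85 ± 0.22 (SE, 95% confidence interval -1.28 to -0.41, adjusted p = 0.0447), a 1.80-fold lower level. JUN stayed called in 31 of the 32 fits that left out 1 library, and without CH-H2 steer 419 its adjusted p was 0.1002. In the steers seen in both phases it went from 208 to 67.8 CPM, from 61.8 to 19.7, from 93.7 to 61.5, from 80.1 to 53.8, from 54.3 to 36.8 and, in steer 856, from 40.4 to 42.2. It was thus lower in 5 of 6 steers, by a mean of -0.82 ± 0.67 (SD, n = 6) on the log2 scale, with an exact sign-flip p of 0.0625.

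FOS, the usual partner of JUN in AP-1, spread more widely than JUN. It stood at 2.68, 30.4 and 168 CPM in CH-H1 and at 1.54, 7.78 and 65.5 CPM in CH-H2. In CH-H2 13 of 14 libraries lay below the CH-H1 median, and 5 of 18 CH-H1 libraries lay above the highest CH-H2 library. The log2 fold change was -1.87 ± 0.57, and its adjusted p of 0.105 missed the threshold. It was called by DESeq2, by edgeR without a block and by limma without a block. FOS was also called with RLE size factors, with edgeR's own filter, with ALB as a covariate and without the RFI class. It was not called with quality weights (adjusted p = 0.116), the TMM factor as a covariate (0.146), unstranded counts (0.106) or no filter (0.1002). Nor was it called with libraries under 1000000 counts included (0.161), with the steer as a fixed block or in either RFI class alone. In 25 of the 32 fits that left out 1 library it likewise stayed uncalled.

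Other members of the list are named here after their values were seen. Among AP-1 relatives the log2 fold change was -1.46 ± 0.58 for FOSB, -1.02 ± 0.35 for JUNB and -0.67 ± 0.23 for FOSL2, with adjusted p between 0.141 and 0.226. For the nuclear receptors NR4A1 and NR4A2, which respond to exercise in muscle, it was -0.59 ± 0.24 and -1.68 ± 0.72. BTG2, an antiproliferative gene, was at -1.31 ± 0.43 and EGR1, a zinc finger factor induced by growth factors, at -1.25 ± 0.42, and ZFP36, which speeds the decay of cytokine mRNA, at -0.46 ± 0.16. None of these passed the adjusted threshold. NFKBIA, the inhibitor that shuts off NF-kappaB, was the member nearest to no difference, at -0.02 ± 0.19. In none of the 16 members did a CH-H2 library exceed the highest CH-H1 library. CH-H1 held more libraries, 18 against 14, and the share of all genes with this trait was not counted.

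**Figure D2:**
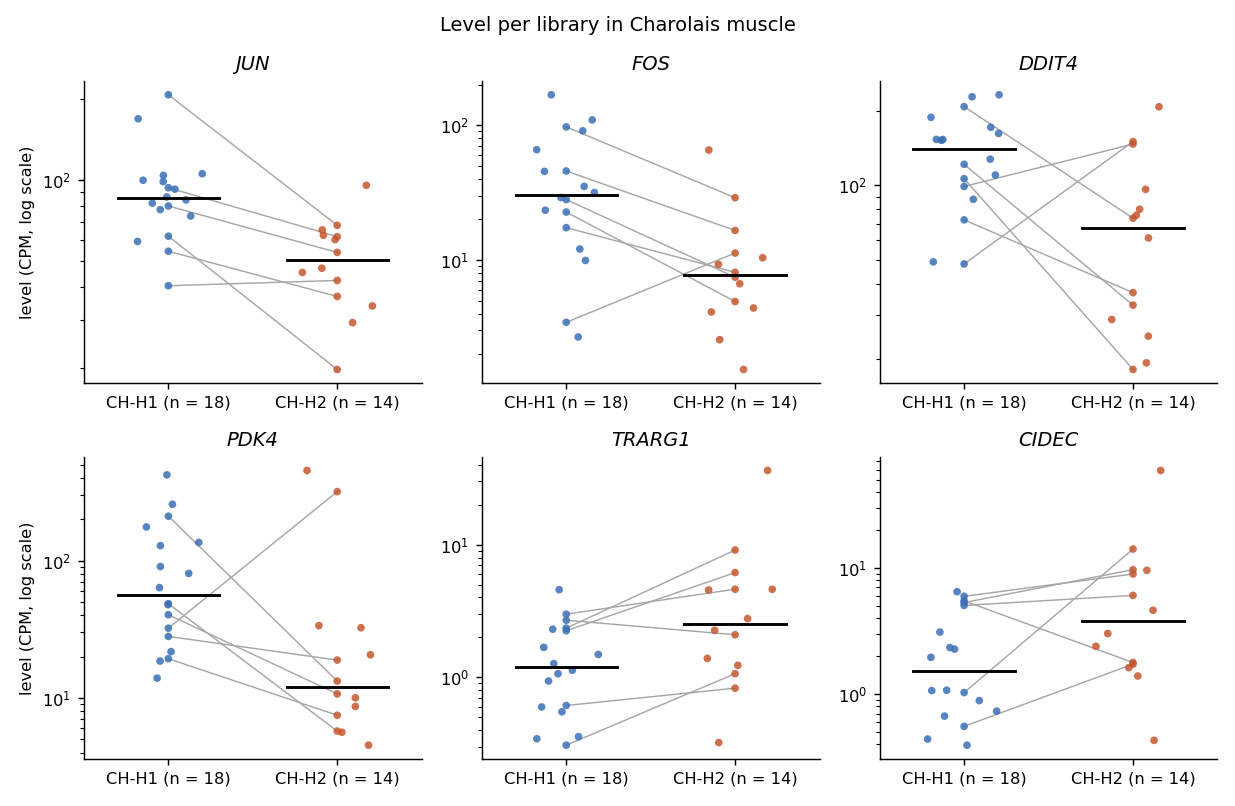
Level of 6 genes in CPM (vertical axes, log scale) in the 18 CH-H1 and 14 CH-H2 libraries, 1 point per library, with the median as a black bar and grey lines joining the 6 steers sampled in both phases. JUN and FOS sit lower in CH-H2 (medians 50.3 against 85.5 CPM and 7.78 against 30.4 CPM), TRARG1 and CIDEC sit higher, and the ranges overlap for every gene.

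For most immediate early genes the medians did not run in 1 direction over the 3 phases. For 14 of the 16 immediate early genes the median in the 18 CH-ZG libraries, from the grass phase between the concentrate phases, was above that in CH-H1, and for all 16 the CH-H2 median was the lowest of the 3 phases. FOS had medians of 30.4, 162 and 7.78 CPM in CH-H1, CH-ZG and CH-H2, with CH-ZG libraries from 0.746 to 1023 CPM. NR4A2 showed the widest swing, with medians of 1.83, 18.4 and 0.680 CPM. JUN had medians of 85.5, 140.2 and 50.3 CPM. Differences from the grass phase were not tested here. For 122 of the 156 called genes the CH-ZG median lay between the other medians. The called genes were picked for a gap between CH-H1 and CH-H2. The symbols of the immediate early genes came from genes picked for RFI or for diet and breed effects in these libraries. The shares of all tested genes with these patterns of medians were not counted, so the patterns have no background here.

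**Figure D3:**
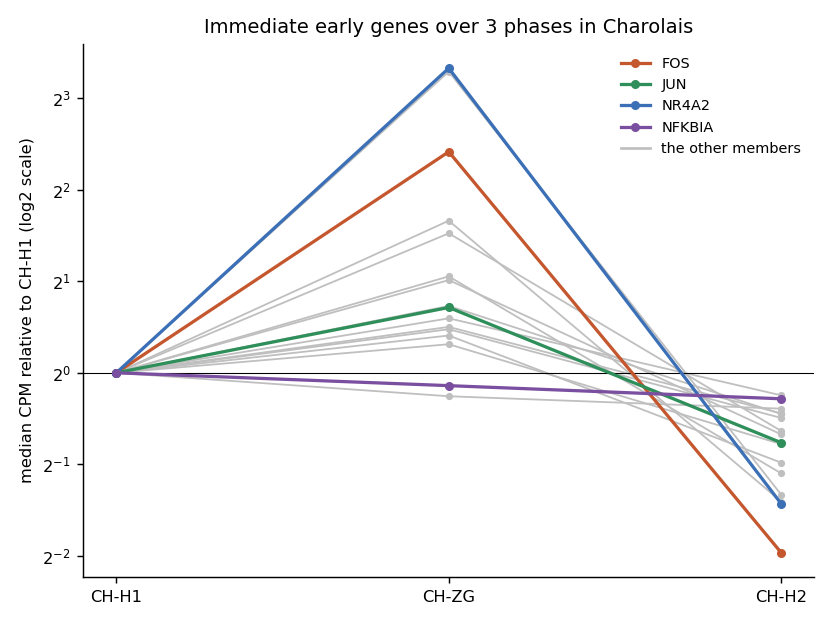
Median CPM of each of the 16 immediate early genes in CH-H1, CH-ZG and CH-H2, divided by its own CH-H1 median (vertical axis, log2 scale), 1 line per gene with 4 genes in colour. Most lines rise to CH-ZG and end below 1 in CH-H2, and NFKBIA stays close to 1 throughout.

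Of the 3 tested glucocorticoid and stress response genes 1, DDIT4, fell, beside 1.12% of all genes called lower, and all 3 were below 0, beside 56.5% of all genes. DDIT4, an inhibitor of the growth kinase mTORC1 that glucocorticoids, low energy and low oxygen induce, stood at 48.2, 139.8 and 232 CPM in CH-H1 and at 18.1, 67.6 and 207 CPM in CH-H2. The log2 fold change was -1.17 ± 0.32 (adjusted p = 0.066), a 2.25-fold lower level, and 11 of 14 CH-H2 libraries lay below the CH-H1 median. The call was lost without CH-H1 steer 1797, CH-H1 steer 581, CH-H2 steer 1844 or CH-H2 steer 310 (adjusted p 0.104 to 0.113), and under edgeR without a block (log2 fold change -0.86, adjusted p = 0.159). GADD45A, a growth arrest gene, had a log2 fold change of -1.02 ± 0.35 (adjusted p = 0.151) and CEBPD, a transcription factor induced by glucocorticoids, one of -0.37 ± 0.26 (adjusted p = 0.504). Both were added after their values were seen. Within steers DDIT4 was lower in 4 of 6 and higher in steers 443 and 1320, with an exact p of 0.281.

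Of the 19 adipocyte markers 4 could be named and 3 were tested, and 1 of the 3, TRARG1, rose, beside 0.388% of all genes called higher. All 3 were above 0 with an unadjusted p under 0.05, beside 6.75% of all genes and 7.56% of the 119 named genes higher at that level. TRARG1 helps insulin bring a glucose transporter to the cell surface. It stood at 0.308 CPM (lowest), 1.199 (median) and 4.58 (highest) in CH-H1 and at 0.322, 2.52 and 36.3 CPM in CH-H2. In CH-H2 11 of 14 libraries lay above the CH-H1 median and 5 above the highest CH-H1 library. The log2 fold change was 1.56 ± 0.44 (SE, adjusted p = 0.0824), a 2.94-fold higher level. Within steers TRARG1 was higher in 5 of 6, with an exact p of 0.0625.

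CIDEC, a coat protein of lipid droplets, went from 0.393, 1.51 and 6.47 CPM to 0.430, 3.81 and 59.1 CPM, a log2 fold change of 1.46 ± 0.46 (adjusted p = 0.118). FABP4, the fatty acid binding protein of fat cells, went from 0.308, 1.44 and 5.63 CPM to 0.430, 3.51 and 37.3 CPM, a log2 fold change of 1.31 ± 0.46 (adjusted p = 0.153). Neither passed the adjusted threshold, and for each 5 CH-H2 libraries lay above every CH-H1 library. The summed level of CIDEC, FABP4 and TRARG1 was 1.17 to 16.0 CPM in CH-H1 and 1.18 to 132.6 CPM in CH-H2. The highest library, from H-RFI steer 1840, held more than any other by a wide margin, the next being H-RFI steer 1320 at 34.6 CPM. In the library of steer 1840, 17.1% of reads mapped to several places, and whether this bears on the level was not tested. Without steer 1840 the log2 fold changes were 1.27 ± 0.42 for TRARG1 (adjusted p = 0.160), 1.17 ± 0.43 for CIDEC and 1.06 ± 0.44 for FABP4. The TRARG1 call was in all lost in 13 of the 32 fits that left out 1 library, without CH-H1 steers 1078, 1816, 322, 364, 449, 581 or 856 or CH-H2 steers 1320, 1840, 310, 367, 419 or 443. It was also lost without the RFI class (log2 fold change 1.32, adjusted p = 0.173), with the TMM factor as a covariate (1.30, adjusted p = 0.106) and with ALB as a covariate (1.24, adjusted p = 0.173). In these bulk biopsies, more fat cells and more of these RNAs per fat cell cannot be told apart.

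Genes of fat synthesis were also above 0 in 3 of 3 tested members, beside 43.5% of all genes, and 0 were called. THRSP, which drives lipid synthesis in fat tissue, was at 0.295, 1.94 and 9.80 CPM in CH-H1 and at 0, 3.26 and 56.7 CPM in CH-H2 (log2 fold change 1.35 ± 0.53, adjusted p = 0.219). FASN, the fatty acid synthase, was at 18.9, 35.7 and 64.2 CPM in CH-H1 and at 12.5, 44.9 and 488 CPM in CH-H2 (log2 fold change 0.52 ± 0.30, adjusted p = 0.424), and without steer 1840 its log2 fold change was 0.23 ± 0.22. The highest FASN level, like the highest fat cell marker sum, was that of steer 1840.

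**Figure D4:**
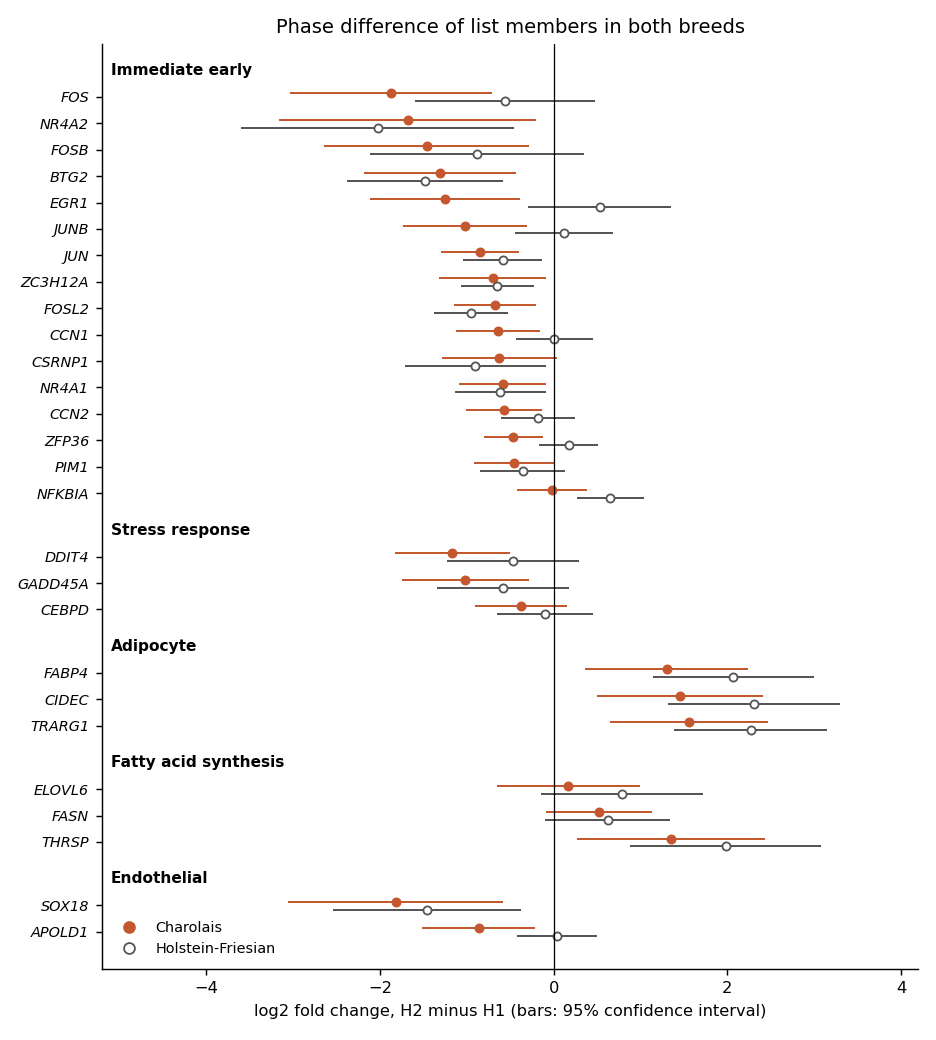
Log2 fold change of H2 against H1 (horizontal axis) with its 95% confidence interval for the tested members of 5 lists, in Charolais (filled points) and in Holstein-Friesian (open points). In Charolais the endothelial points and, apart from NFKBIA at about 0, the immediate early points lie below 0 and the adipocyte points lie above 0, and in both breeds TRARG1, CIDEC and FABP4 lie above 0.

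Among the 4 tested genes of fatty acid uptake and oxidation, 2 were above 0 and 2 below, and 0 were called. PDK4, the kinase that blocks the entry of pyruvate into the mitochondrion and so favours fat as fuel, stood at 13.9, 56.0 and 421 CPM in CH-H1 and at 4.52, 12.0 and 453 CPM in CH-H2. In CH-H2 12 of 14 libraries lay below the CH-H1 median, and the highest of the 32 libraries was also in CH-H2. The log2 fold change was -1.79 ± 0.61 (adjusted p = 0.150), against -0.58 in DESeq2 (adjusted p = 0.712) and -0.57 in edgeR without a block (adjusted p = 0.741). Within steers it was lower in 5 of 6 and went from 32.2 to 317.6 CPM in steer 443, the same steer in which DDIT4 went from 48.2 to 150.2 CPM. ACSM1, which activates medium-chain fatty acids, had a log2 fold change of 0.95 ± 0.39 (adjusted p = 0.251).

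No gene of the fibre itself that could be named passed the adjusted threshold. Of the 4 tested slow fibre genes 0 were called, with log2 fold changes between -0.30 and 0.13, and MYH6 had medians of 262 CPM in CH-H1 and 289 CPM in CH-H2 (log2 fold change 0.13 ± 0.27). MYH4, the fast IIb myosin, had medians of 3.87 and 3.52 CPM, with a log2 fold change of -0.87 and a confidence interval of -2.64 to 0.90. Within steers it was lower in 5 of 6 (exact p = 0.0625). The largest change, from 3.99 to 0 CPM, was in steer 856, whose CH-H2 library had the fewest counts. In the other steers the log2 change lay between -1.09 and 0.06. The myosin heavy chain genes resemble each other closely, so that reads may be split between them and these values are uncertain. ACTC1, the cardiac actin that skeletal muscle makes in early development, was at 4.18, 13.7 and 62.4 CPM in CH-H1 and at 2.46, 5.70 and 20.2 CPM in CH-H2 (log2 fold change -1.02 ± 0.37, adjusted p = 0.178). All 4 tested developmental genes were below 0, beside 56.5% of all genes, and 0 were called.

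Among regulators of muscle growth 3 of 3 tested genes were below 0, beside 56.5% of all genes, and 0 were called. INHA, the alpha subunit of inhibin, a ligand of the TGF-beta family, was at 0.977, 2.77 and 12.4 CPM in CH-H1 and at 0.215, 1.12 and 6.18 CPM in CH-H2. Its log2 fold change was -1.24 ± 0.39 (adjusted p = 0.113), and it was lower in 5 of 6 steers with an exact p of 0.0625. HES1, a target of Notch signalling, was at -0.66 ± 0.26 (adjusted p = 0.236). ACHE, the acetylcholinesterase of the nerve and muscle junction, was at -1.18 ± 0.57 (adjusted p = 0.332). FOXO1, a driver of protein breakdown in fasted muscle, had a log2 fold change of 0.06 ± 0.23.

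Markers of the other cell types a biopsy can hold were summed for each library as far as they could be named. The 2 endothelial genes went from 3.43 to 14.4 CPM (median 5.95) in CH-H1 to 0.828 to 9.30 CPM (median 3.01) in CH-H2. SOX18, a transcription factor of blood and lymph vessels, had a log2 fold change of -1.82 ± 0.60 (adjusted p = 0.135) and APOLD1, an endothelial gene that behaves as an immediate early gene, one of -0.86 ± 0.32 (adjusted p = 0.178). The 6 lymphocyte genes summed to a median of 7.62 CPM in CH-H1 and 3.90 CPM in CH-H2 and the 5 myeloid genes to 9.85 and 7.43 CPM. The ranges overlapped, and the highest sums were in CH-H2. They were 31.3 CPM against 14.5 CPM in CH-H1 for lymphocyte genes and 30.3 against 26.2 CPM for myeloid genes. Of the 4 tested myeloid genes 3 were below 0 and 1 above, and both tested lymphocyte genes were below 0. PTPRC, the common leucocyte antigen, was at -0.74 ± 0.45 (adjusted p = 0.453) and CTSS, a protease of macrophages, at -0.80 ± 0.31 (adjusted p = 0.211). CASP4, an inflammatory caspase from the interferon response list and not a cell type marker here, was at -0.88 ± 0.28 (adjusted p = 0.120). The single erythroid gene that could be named, HBD, was at 0 in all 32 libraries. Pericyte, fibroblast and Schwann cell markers could not be named. The part of vessel and blood cells in the lower immediate early genes was not tested.

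Plasma protein genes, which the liver makes, were present in all the libraries. Their 10 named members were all tested and all above 0, beside 43.5% of all genes. None was called, with 0 at an unadjusted p under 0.05. Their summed level was 23.8 to 357.8 CPM (median 93.0) in CH-H1 and 38.8 to 664.7 CPM (median 111) in CH-H2. ALB, serum albumin, had a log2 fold change of 0.43 ± 0.44 and FGB, the fibrinogen beta chain, one of 0.67 ± 0.43. With the level of ALB as a covariate 25 genes were called higher and 86 lower, and TRARG1 was not called.

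The mitochondrial transcripts MT-CO3 and MT-ND3, subunits of cytochrome oxidase and of complex I, had medians of 16888 and 25392 CPM and of 5266 and 5903 CPM in CH-H1 and CH-H2. The log2 fold changes were 0.57 ± 0.32 (adjusted p = 0.417) and 0.81 ± 0.37 (adjusted p = 0.296). Their share of all counts was 1.49% to 6.74% in CH-H1 and 1.87% to 8.75% in CH-H2, and the highest share was that of the library of steer 856 that stood apart. Without it the log2 fold changes were 0.38 and 0.56. With the TMM factor as a covariate, chosen after the data were seen, MT-CO3 turned to -0.08.

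Within the 6 steers seen in both phases no gene passed a test adjusted over all 10317 genes. The smallest exact p that 6 pairs allow is 0.03125, and 156 genes reached it, 81 higher and 75 lower, with a smallest adjusted p of 0.999. Of the 40 genes called higher in the whole comparison, 26 were higher in at least 5 of the 6 steers and 8 in all 6. Of the 116 called lower, 67 were lower in at least 5 and 28 in all 6. Since these 12 libraries were part of the 32, these counts describe the called genes and do not test them.

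The phase difference was not shown to depend on RFI class. The interaction of phase and class was called for 0 of 10317 genes, with 142 (1.38%) at an unadjusted p under 0.05 in limma, 105 without the block and 142 in edgeR. With the classes apart the comparison called 1 gene higher and 3 lower in H-RFI steers and 0 higher and 1 lower in L-RFI steers, in 17 and 15 libraries. TRARG1 had a log2 fold change of 2.10 ± 0.55 in H-RFI steers and of 0.58 ± 0.53 in L-RFI steers (unadjusted p of the difference 0.0856). DDIT4 had one of -0.42 ± 0.34 in H-RFI and of -1.95 ± 0.43 in L-RFI steers (unadjusted p of the difference 0.0251). JUN had one of -1.05 ± 0.29 in H-RFI and of -0.65 ± 0.23 in L-RFI steers. After adjustment over all genes none of these differences between the classes passed.

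The same comparison in Holstein-Friesian (HF) steers, a dairy breed fed alongside, used 20 HF-H1 and 16 HF-H2 libraries from other animals. These steers weighed 294 kg and 611 kg when the phases began. Of 10448 genes tested there, 1071 (10.3%) were called, 199 higher (1.9%) and 872 lower (8.35%). Of the 156 genes called in CH, 153 were tested in HF and 152 had the same sign, beside 80.6% of the 10223 genes tested in both breeds. For 108 of the 153 the HF comparison was itself called in the same direction, 23 of 38 higher and 85 of 115 lower, and for 0 in the opposite direction. Read the other way, 10.5% of the 1027 genes called in HF and tested in CH were called in CH, and 98.7% had the same sign there. The median HF log2 fold change was 0.66 for the genes called higher in CH and -0.77 for those called lower. The breeds shared the feeding phases, so that whatever went with a phase in both breeds is part of both comparisons.

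**Figure D5:**
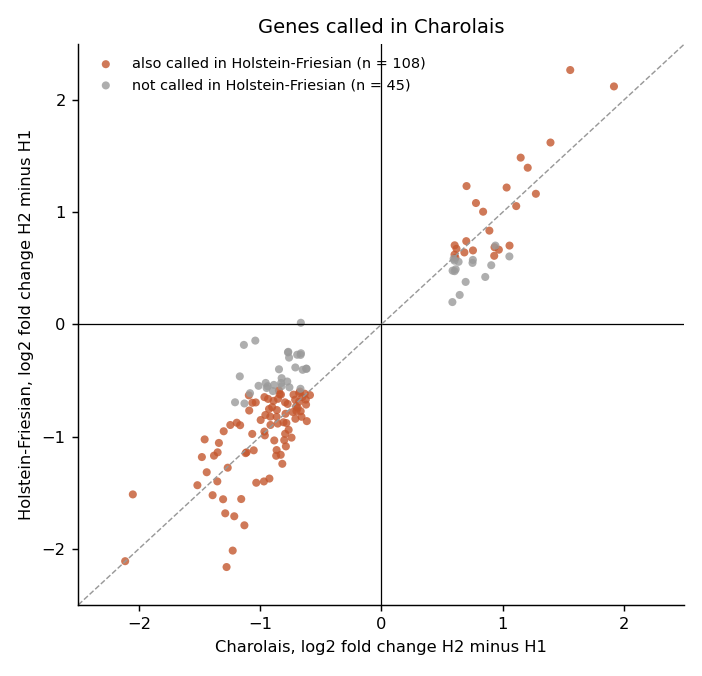
Log2 fold change of H2 against H1 in Holstein-Friesian (vertical axis) against that in Charolais (horizontal axis) for the 153 genes called in Charolais and tested in both breeds, with a dashed line where the 2 are equal. All but 1 point lie in the quadrants where the breeds share a direction, and 108 were also called in Holstein-Friesian.

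No difference of the phase effect between the breeds passed its test. The interaction of phase and breed was called for 0 of 10361 genes, with 272 (2.63%) at an unadjusted p under 0.05 in limma, 364 without the block and 375 in edgeR. In HF the adipocyte genes rose, at 2.27 ± 0.43 for TRARG1 (adjusted p = 0.000954), 2.31 ± 0.48 for CIDEC and 2.07 ± 0.45 for FABP4 on the log2 scale, and so did THRSP (1.98 ± 0.54), MT-CO3 (1.03 ± 0.29) and MT-ND3 (1.22 ± 0.31). JUN fell in HF too, by 0.59 ± 0.22 (adjusted p = 0.0708), as did SOX18, BTG2, NR4A2, FOSL2 and ZC3H12A, a nuclease that degrades inflammatory mRNA. DDIT4, the other gene with a symbol called lower in CH, was not called in HF (log2 fold change -0.46 ± 0.37, adjusted p = 0.405). Of the 16 immediate early genes 5 were called lower in HF, beside 8.35% of all genes there, 1 was called higher, beside 1.9%, and 11 were below 0, beside 54.3% of the genes tested in both breeds. EGR1 was at -1.25 ± 0.42 in CH and 0.53 in HF, with an unadjusted p of 0.00354 for the difference. NFKBIA rose in HF, at a log2 fold change of 0.65. FOXO1 fell in HF by 1.14 on the log2 scale, against 0.06 in CH, with an unadjusted p of 0.0122 for the difference. These differences did not pass adjustment over all genes.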

How the data were processed

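Muscle biopsies of Charolais steers were sequenced by the authors with a stranded mRNA kit. Adapter and quality trimming by Cutadapt, alignment by STAR 2.5.1 and counting per Ensembl gene were done by the authors. The paper names the genome ARS-UCD1.2 and the submitters' processing notes name UMD3.1, together with FastQC 0.11.5, HTSeq and DESeq2, so the build is uncertain and no coordinates are given. The deposited values are raw counts for 24616 genes in 111 libraries, neither normalised nor filtered. The reverse-strand counts were used, which held 98.45% to 99.41% of the stranded gene counts of the libraries compared.

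Libraries under 1000000 counts were left out. A gene was tested if 50% or more of the libraries compared reached 1 CPM. CH-H2 was compared with CH-H1 by limma voom with TMM factors, RFI class as a covariate and the steer as a random block (consensus correlation -0.259). The block rests on 6 steers, identified by the number in the labels, that gave a library in both phases. Their deviations from the phase means correlated at between -0.579 and 0.438. Genes were called at a Benjamini-Hochberg adjusted p-value under 0.1 over all genes tested and a fold change above 1.5, the thresholds of the study. Differences of the phase effect between breeds and between RFI classes were interaction terms of the same model. Changes within steers were tested by an exact two-sided sign-flip permutation test of log2 CPM. Levels are CPM with TMM factors on 1 scale for all libraries, and standard errors are those of limma. A limit of 3 counts per library is the smallest level that the depth can show, which covers counting error only. Scripts were tested on simulated data drawn without a steer effect and fitted without a correlation within steers. The steer block as used in the main fit was therefore not tested there. Software was R 4.3.3, limma 3.58.1, edgeR 4.0.16, DESeq2 1.42.0, Python 3.11.15 and scipy 1.17.1.

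The count files carry no gene symbols. Symbols came from the identifier and symbol pairs in the study's supplementary table of genes that differed between RFI classes or by diet and breed in these libraries, which named 151 of the 24616 genes and 83 of the 843 symbols in 34 functional lists. The named genes are therefore not independent of these samples. The comparison, the lists and the tests were chosen with earlier results of these data known. The genes named were the called genes with a symbol, up to 4 called members of each list or, where none was called, the 2 with the smallest p-value, and a set of muscle, growth, lipid and plasma protein genes. Of genes without a symbol, the 2 with the smallest p-value in each direction are given. Alternatives were no block, the steer as a fixed block, edgeR, DESeq2, quality weights, other scaling, filters, counts and thresholds, other covariates, the RFI classes apart, and each library left out.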

Additional observations from a re-analysis of the deposited data

How the results depend on the processing

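The number of genes called moved with the settings more than their direction did. Against 40 genes higher and 116 lower, DESeq2 called 80 and 214, edgeR without a replicate block 64 and 121, sample quality weights 67 and 278, and no filter on low counts 75 and 175. ALB as a covariate gave 25 higher, no fold change limit gave 82 higher and an adjusted p under 0.05 gave 23 higher and 53 lower. The TMM factor as a covariate, added after the data were seen, gave 198 lower, edgeR's filter 179 lower and including the libraries under 1000000 counts 52 lower. With the steer as a fixed replicate block the counts were 0 and 0, where only 6 pairs carry the comparison, with 83 genes at an unadjusted p under 0.05, and JUN, DDIT4 and TRARG1 were not called. With fewer samples, H-RFI libraries alone gave 1 and 3 and L-RFI libraries alone 0 and 1. Limma without the block called 52 and 169, with 154 of the 156 genes among them. Among alternatives that kept all 32 libraries, the 156 genes had the same direction in every one, in the same libraries that picked them.

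Leaving out each library gave 18 to 74 genes higher and 50 to 199 lower, and 57 of the 156 genes were called in every such fit. The counts moved by over 1.5 times without CH-H1 steer 581 (20 and 50), CH-H2 steer 419 (26 and 50), CH-H2 steer 322 (74 and 199), CH-H2 steers 1484, 1840 and 310 (22, 18 and 23 higher), CH-H1 steer 1816 (73 lower) and CH-H2 steer 1320 (178 lower). Without CH-H2 steer 856, which stood apart, 30 and 117 were called.

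Of the 41 named genes followed through the settings, 9 turned direction in at least 1, and the adjusted p of each was 0.173 or more. With the steer as a fixed block the log2 fold change became 0.0856 for CCN1, -0.387 for FOXO1, -0.0833 for MT-CO3, -0.17 for MT-ND3, -0.22 for MYH6 and 0.0250 for NFKBIA. With the TMM factor as a covariate it became -0.0835 for MT-CO3 and -0.20 for MYH6. In L-RFI libraries alone it became -0.26 for ALB and -0.14 for FGB, and in H-RFI libraries alone -0.28 for MYH6 and 0.38 for NFKBIA. NFKBIA also stood at 0.00034 in edgeR without a block, 0.0361 without the RFI class and 0.0811 with quality weights, and PTPRC at 0.0095 in edgeR without a block. Leaving out each library moved FOXO1 from -0.0868 to 0.12 and NFKBIA from -0.11 to 0.0488. The interaction counts of 0 for breed and for RFI class stayed at 0 in limma without a block and in edgeR. In HF the count without a block was 241 higher and 1078 lower. The cause of these changes was not tested. Depth limits genes near 0.0571 to 1.36 CPM, the level of 3 counts in the deepest CH-H1 and the shallowest CH-H2 library.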
